A study of Mus musculus with 8 samples.

Results

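The miR-200 family is a group of 5 related miRNAs made from a pair of gene clusters: miR-200b, miR-200a and miR-429 on mouse chromosome 4, and miR-200c and miR-141 on chromosome 6. Every entry of the deposited expression table named mmu-miR-200a, mmu-miR-200b, mmu-miR-200c, mmu-miR-141 or mmu-miR-429, with or without a suffix for the 5p or 3p arm (the strand cut from either side of the hairpin), was taken as a member. That gave 9 of the 1099 mature miRNAs listed: both arms of miR-200a, miR-200b, miR-200c and miR-141, and the 3p arm of miR-429. All 9 were among the 839 miRNAs tested, those that reached a value of 1 in 2 libraries or more.

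The cells were KH2-DGCR8, derived from KH2, a mouse embryonic stem cell line made for transgenes switched on by doxycycline (Dox). The transgene here is for DGCR8, the partner of the nuclease DROSHA. Small RNA was sequenced from cells taken through embryoid body (EB) differentiation, in which stem cells are grown as aggregates and leave pluripotency, at days 0, 1, 2 and 4. Each day had 1 library with Dox and 1 without it, 8 in all, and the study asked how raising DGCR8 during this differentiation alters miRNA production. All 8 came from the same KH2-DGCR8 genotype, so cells without Dox carried the transgene as well. The sources used here do not give how long Dox was applied, including before day 0, and DGCR8 itself is not measured in small RNA libraries.

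As background, primary miRNA transcripts are cut in the nucleus by the Microprocessor, DROSHA with DGCR8, into hairpins, which DICER cuts again into a duplex of both arms. The miR-200 family is known for keeping cells epithelial: its members pair with sites in the mRNAs of Zeb1 and Zeb2, repressors of the E-cadherin gene, and ZEB proteins in turn repress both miR-200 clusters. Target choice rests mainly on the seed, the bases near the 5′ end, and the family holds a pair of seeds that differ at a single base.

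The mature 3p sequences below are shown because the family's seeds and near-identical members decide how its values can be read. They are from RefSeq, 5′ to 3′, and capitals mark the seed, bases 2 to 8. The first 3 share 1 seed and the last 2 share the other.
miR-200b-3p: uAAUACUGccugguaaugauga
miR-429-3p: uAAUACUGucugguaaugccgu
miR-200c-3p: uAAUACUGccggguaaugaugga
miR-200a-3p: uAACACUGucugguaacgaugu
miR-141-3p: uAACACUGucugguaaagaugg
Each seed thus occurs at both loci: miR-200b and miR-429 on chromosome 4 share theirs with miR-200c on chromosome 6, and miR-200a on chromosome 4 shares its seed with miR-141 on chromosome 6. The seeds differ by U4C, read from miR-200b-3p to miR-200a-3p, with positions counted from 1 at the 5′ end. No other mouse mature miRNA in the RefSeq table had either seed (0 others).

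Between the loci the closest pairs were nearly the same molecule. From miR-200b-3p to miR-200c-3p the substitutions were U11G and A22G, with 1 further base at the 3′ end of miR-200c-3p. From miR-200a-3p to miR-141-3p they were C17A and U22G. From miR-200b-3p to miR-429-3p there were 4: C9U, A19C, U20C and A22U. The sources used here do not say how mismatches and reads that fit several miRNAs were handled, so the split of reads within these pairs is less certain than their sum.

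The hairpins are shown because they place the arms and the loop between them, the part of the substrate near which DGCR8 binds. Capitals mark the 5p and 3p arms, and the lower-case run between them is the loop.
Mir200b: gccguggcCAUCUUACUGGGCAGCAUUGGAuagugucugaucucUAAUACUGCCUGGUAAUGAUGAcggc
Mir200a: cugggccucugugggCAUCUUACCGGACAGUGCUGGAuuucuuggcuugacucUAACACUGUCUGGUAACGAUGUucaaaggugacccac
Mir429: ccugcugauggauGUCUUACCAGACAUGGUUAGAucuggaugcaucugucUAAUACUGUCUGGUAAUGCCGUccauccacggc
Mir200c: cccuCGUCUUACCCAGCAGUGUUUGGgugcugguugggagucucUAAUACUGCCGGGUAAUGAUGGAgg
Mir141: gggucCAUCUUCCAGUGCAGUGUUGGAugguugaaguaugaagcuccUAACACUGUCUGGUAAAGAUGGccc
The loops measured 14 bases in Mir200b, 16 in Mir200a and in Mir429, 18 in Mir200c and 20 in Mir141, where the median over the 644 mouse hairpins with both arms in RefSeq was 16 (quartiles 14 and 19). The letters UGU, searched on the RNA strand only, stood in the loops of Mir200b and Mir429 and in 31.5% of those 644 loops. A match describes these letters and is no measure of binding.

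All 5 hairpins lie on the minus strand (GRCm38.p6, the build mm10). Mir200b is at chr4:156055681-156055750, Mir200a at chr4:156054896-156054985 and Mir429 at chr4:156053905-156053987, in that order of transcription. The gaps between them are 695 and 908 bases and the whole cluster spans 1846 bases. GENCODE M21 places the 3 hairpins inside the protein-coding gene Ttll10, outside its exons, and inside the non-coding transcript gene Gm13648, where Mir200b and Mir200a are intronic and Mir429 overlaps an exon. Mir200c at chr6:124718322-124718390 and Mir141 at chr6:124717914-124717985 are 336 bases apart, span 477 bases and lie in an intron of the antisense RNA gene Gm15884. Mir141 also overlaps in part an exon of Gm29008, a model that GENCODE lists as still to be experimentally checked.

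The libraries rested on 362483 to 541342 reads assigned to miRNAs, the smallest totals found that fit the steps of the low values. The values are RPM, reads scaled to 1 common total per library, so 3 reads correspond to between 5.54 and 8.28 RPM. Stem cell miRNAs of the miR-290 to miR-295 cluster summed to 460852 RPM at day 0 without Dox and 162740 at day 4, and to 404813 and 228907 with Dox. The miR-302 cluster, a mark of epiblast-like cells, summed to 419 and 35789 RPM on the same days without Dox and to 329 and 2369 with Dox, all values of single libraries. The median log2 change of all miRNAs tested was 0.48 at day 2 and 0.56 at day 4 against day 0. With median-of-ratios scaling, which sets the typical miRNA level, the same medians were 0.03 and 0.01, so day changes are set beside that shift below. The p-values cover only the spread between these libraries, since nothing in the labels says that the libraries came from separate cultures. In limma, the test used for days and for Dox, that spread is also moved toward the trend over all miRNAs. In bulk samples, fewer cells that make a miRNA and less of it per cell cannot be told apart.

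The family was expressed from day 0 in every library and its 9 members together took about 1% of miRNA reads. Without Dox the share was 0.982% at day 0, 1.34% at day 1, 1.15% at day 2 and 1.40% at day 4. With Dox it was 0.934%, 1.11%, 0.987% and 0.856% on the same days. The share without Dox was thus the higher of the pair on each of the 4 days. The widest 95% exact binomial interval on these shares was 1.37% to 1.44%, at day 4 without Dox, and these intervals cover counting error only.

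**Figure D1:**
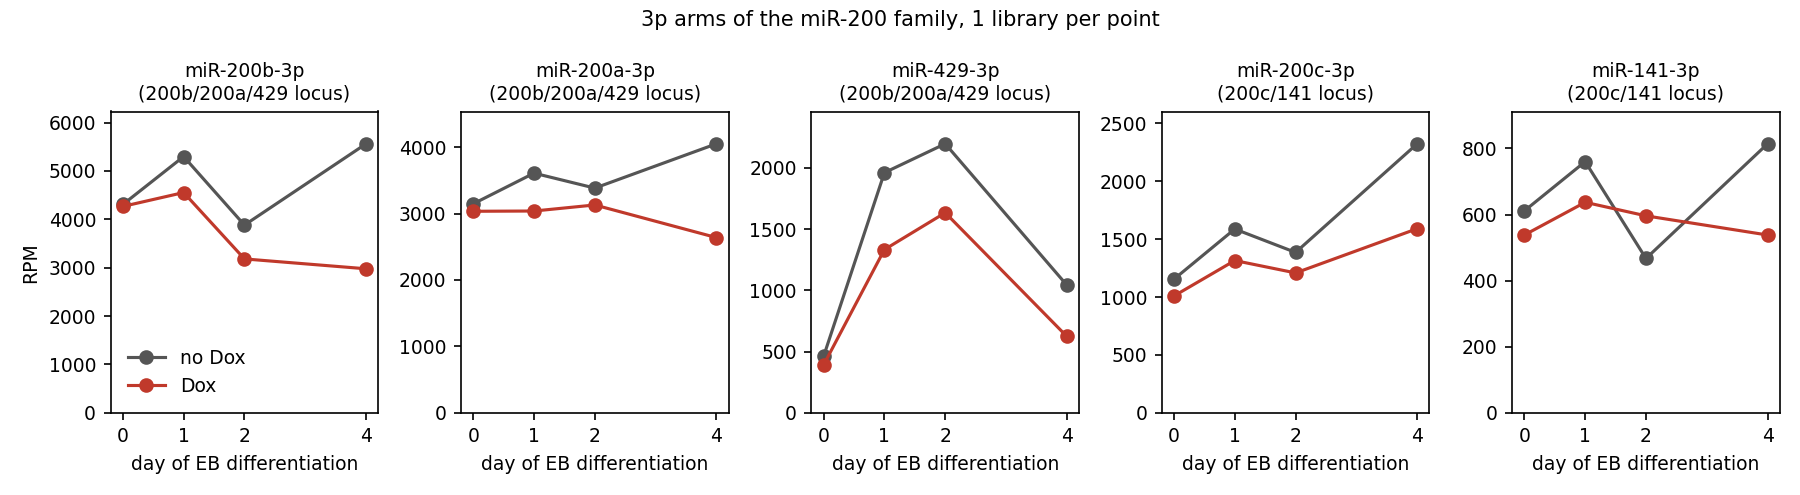
Level of the 5 miR-200 family 3p arms (RPM, linear axis, scaled separately in each panel) against the day of EB differentiation, with 1 point per library, without Dox and with Dox. miR-429-3p starts lowest in both series, climbs from 461 to 2197 RPM by day 2 without Dox and drops back to 1043 by day 4, while miR-200b-3p and miR-200a-3p move much less.

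miR-200b-3p, of the chromosome 4 locus, was the most abundant member with a mean of 4254 RPM over the 8 libraries, rank 47 of all miRNAs. Its level was 4307, 5298, 3881 and 5562 RPM on days 0, 1, 2 and 4 without Dox. With Dox the level was 4267, 4554, 3182 and 2978 RPM. The highest and lowest values were thus both at day 4, without and with Dox, and they differed 1.87-fold.

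miR-200a-3p, its neighbour with the other seed, had levels of 3146, 3608, 3383 and 4050 RPM without Dox. With Dox they were 3034, 3038, 3129 and 2638 RPM. It was the steadiest of the 5 arms, with a highest value 1.53-fold the lowest, again between the day 4 libraries.

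miR-429-3p, the third miRNA of the same cluster, had levels of 461, 1961, 2197 and 1043 RPM without Dox. With Dox they were 391, 1333, 1634 and 624 RPM. Both series had the same order of days: lowest at day 0, then day 4, day 1 and day 2. Its highest value was 5.62-fold its lowest.

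miR-200c-3p, of the chromosome 6 locus, had levels of 1154, 1587, 1385 and 2323 RPM without Dox. With Dox they were 1009, 1315, 1208 and 1590 RPM. Day 4 was its highest day and day 0 its lowest in both series.

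miR-141-3p, its partner, was the lowest of the 5 arms by mean (620 RPM). Without Dox its level was 611, 760, 467 and 814 RPM on the 4 days. With Dox it was 538, 637, 596 and 538 RPM. These series shared no order of days.

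By mean RPM the order of the 3p arms was miR-200b-3p (4254), miR-200a-3p (3253), miR-200c-3p (1446), miR-429-3p (1206) and miR-141-3p (620). miR-200b-3p was above miR-200a-3p in each of the 8 libraries, but the ranges of these arms over the libraries overlapped. miR-200c-3p and miR-429-3p changed places: miR-200c-3p was the higher at days 0 and 4 in both series, and miR-429-3p at days 1 and 2, although with Dox at day 1 they were nearly level (1315 and 1333 RPM). Mature arms are near-equal in length, so RPM values were compared between arms without a length term, although ligation can favour some small RNAs over others, and that was not tested.

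The 5p arms are the minor products of these hairpins. miR-200a-5p was the only one above 50 RPM, at 116, 156, 159 and 218 RPM on the 4 days without Dox; the values with Dox were 87, 135, 94 and 170 RPM. miR-200b-5p lay between 8 and 41 RPM. miR-141-5p (0 to 14 RPM) and miR-200c-5p (0 to 8 RPM) rested on at most 6 and 4 reads a library. Where they read 0, at day 0, 3 reads would have been 7.27 RPM without Dox and 8.20 with Dox, so their absence there is not shown.

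As a share of both arms, the 5p arm of miR-200a was 3.57%, 4.14%, 4.49% and 5.11% on the 4 days without Dox and 2.80%, 4.26%, 2.90% and 6.05% with Dox. Day 4 was the highest day in both series, with 95% exact binomial intervals of 4.06% to 6.32% without Dox and 4.91% to 7.37% with Dox. The day 0 intervals, 2.64% to 4.70% and 1.92% to 3.93%, overlapped that at day 4 without Dox and stood apart from it with Dox. The 5p share stayed below 1% in every library for miR-200b (0.192% to 0.883%) and miR-200c (0% to 0.462%). For miR-141 it ranged from 0% to 2.96% on few reads. The 3p arm was therefore the dominant product of these 4 hairpins in all 8 libraries, with and without Dox.

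**Figure D2:**
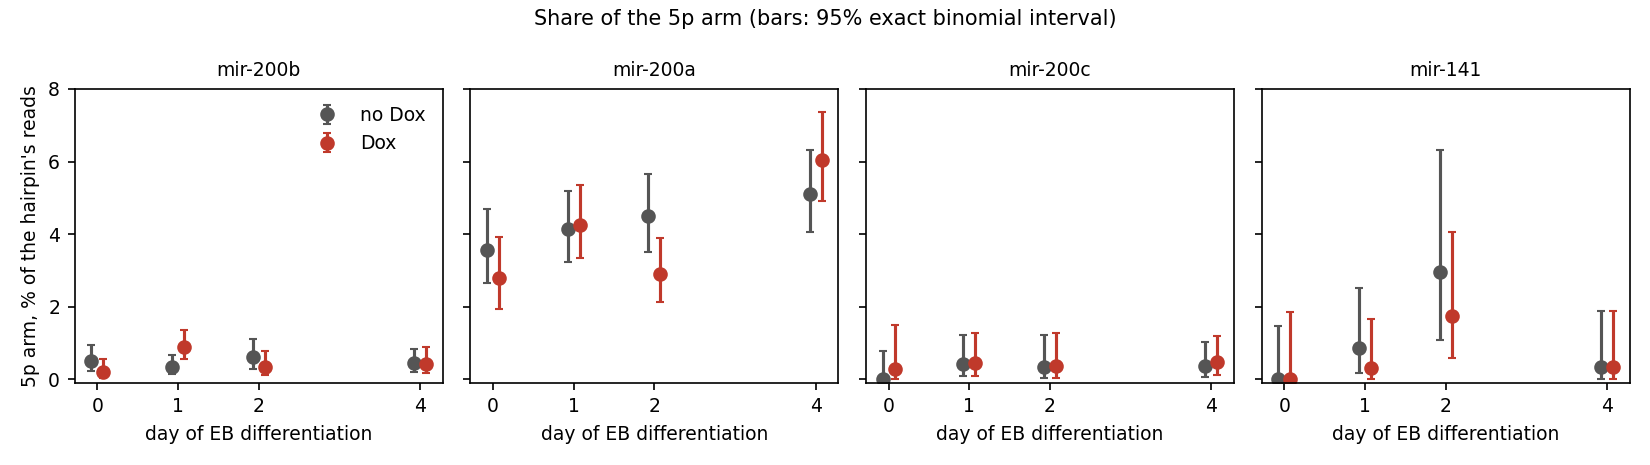
Share of the 5p arm among the reads of both arms (percent) for the 4 hairpins with both arms measured, by day and treatment, with 95% exact binomial intervals on implied reads. The share of miR-200a, between 2.80% and 6.05%, is the highest in every library, but the bars of miR-141 overlap its own at day 2 in both series. The wide bars of miR-141 reflect at most 6 reads of its 5p arm.

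Day was tested with limma on log2(value + 1) over all 8 libraries, with treatment in the model and Benjamini-Hochberg adjustment over the 839 miRNAs. Folds below are on that scale. The error of a day change starts from how far day changes differed between the series with and without Dox. That spread was moved toward the trend over all miRNAs, to an SD of 0.292 for miR-429-3p against 0.15 of its own. At day 1 against day 0, 1 of the 9 members rose, where 7.03% of all miRNAs did. This was miR-429-3p, with a log2 change of 1.93 (SE 0.29, adjusted p = 4.41e-08), the smallest p of the 839. The single libraries gave 4.26-fold without Dox (95% counting interval 3.64 to 5.01) and 3.41-fold with Dox (2.84 to 4.11). No other member passed, with adjusted p from 0.249 to 0.903 by limma.

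At day 2 against day 0, 2 of the 9 members rose, against 15.3% of all miRNAs. miR-429-3p was higher by 2.16 (SE 0.29, limma adjusted p = 9.44e-11), again the smallest p of the 839. This was 4.77-fold without Dox (4.08 to 5.61) and 4.18-fold with Dox (3.49 to 5.03). The other call, miR-141-5p, rests on 6 and 5 reads at day 2 and none at day 0. The 95% counting interval of its day 2 to day 0 ratio began at 1.15 without Dox and at 0.713 with Dox, where it included 1. Its limma adjusted p = 0.0138 rose to 0.169 without the day 0 library without Dox, to 0.211 without the day 2 library without Dox and to 0.178 without the day 2 library with Dox. The other 7 members had limma adjusted p from 0.437 to 0.91. With median-of-ratios scaling 3 members were called at day 2, in either direction, where 102 of 839 miRNAs were.

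At day 4 the rise of miR-429-3p had partly gone. Its log2 level fell by 1.23 from day 2 (SE 0.29, limma adjusted p = 0.000824), to 0.475-fold of its day 2 level without Dox (0.420 to 0.536) and 0.382-fold with Dox (0.335 to 0.435). It was 1 of the 9 members that fell between these days, against 3.81% of all miRNAs, in a contrast added after seeing the data. The adjusted p was 0.0837 without the day 2 library without Dox and 0.141 without that with Dox, while the fall stayed between 1.06 and 1.40 over all single libraries left out.

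Against day 0, 2 of the 9 members were higher at day 4, where 21.9% of all miRNAs were. These were miR-429-3p with 0.93 (SE 0.29, limma adjusted p = 0.009) and miR-200c-3p with 0.83 (SE 0.28, adjusted p = 0.0164), while the other 7 had adjusted p from 0.0835 to 0.885. Both calls ended with median-of-ratios scaling, which left 0.33 (adjusted p = 0.51) and 0.23 (adjusted p = 0.628), the deposited scale having moved the median of all miRNAs by 0.56. Leaving out the day 0 or the day 4 library without Dox ended the call of miR-429-3p (adjusted p = 0.22 and 0.0826). Leaving out either of these or the day 0 library with Dox ended that of miR-200c-3p (adjusted p between 0.0759 and 0.188). The rises of miR-429-3p at days 1 and 2 passed under that scaling (1.55 and 1.68, adjusted p = 5.21e-05 and 2.11e-06) and without any single library. Without a filter on low values their limma adjusted p was 0.0692 and 0.0725, in a fit that called 1 of 1099 miRNAs on each day. Without the robust option of limma it was 0.0235 and 0.0107, and 0.0427 for the fall from day 2 to day 4.

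The members of 1 cluster can be set against each other inside a library, where scaling to a common total has no part. The ratio of miR-429-3p to miR-200b-3p, transcribed within 1846 bases and sharing a seed, was 0.107, 0.370, 0.566 and 0.188 on days 0, 1, 2 and 4 without Dox. With Dox it was 0.0916, 0.293, 0.513 and 0.210. The 95% counting intervals of day 0 (0.0916 to 0.124 and 0.0766 to 0.109) stood apart from those of each later day in the same series. By contrast the ratio of miR-200a-3p to miR-200b-3p ranged only from 0.667 to 0.983 over the 8 libraries, with its highest value at day 2 in both series.

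With every miRNA taken relative to miR-200b-3p and refitted, a comparison chosen after seeing the data, miR-429-3p rose by 1.73 at day 1 (SE 0.35, limma adjusted p = 0.00213). It was the only 1 of 8 members that rose, against 2.27% of 838 miRNAs. At day 2 it was higher by 2.44 (SE 0.35, adjusted p = 1.16e-06), and miR-141-5p passed as well, on the few reads named above, so that 2 of 8 rose against 17.7% of all. At day 4 it was 1.00 above day 0 (SE 0.35, adjusted p = 0.0289) and had fallen by 1.44 since day 2 (SE 0.35, adjusted p = 0.00549). miR-429-3p was the only 1 of 8 members that fell from day 2 to day 4 on this scale, against 2.86% of all. The day 2 call held with each library left out in turn, and the day 1 call was lost without any 1 of the 4 libraries of days 1 and 2 (adjusted p between 0.0595 and 0.314). The call at day 4 against day 0 was lost without any library other than that of day 4 without Dox (adjusted p between 0.0713 and 0.177), and the fall since day 2 without either day 2 library (0.331 and 0.326). miR-200a-3p did not pass relative to miR-200b-3p on any day, with adjusted p from 0.514 to 0.936 over the 4 day contrasts.

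**Figure D3:**
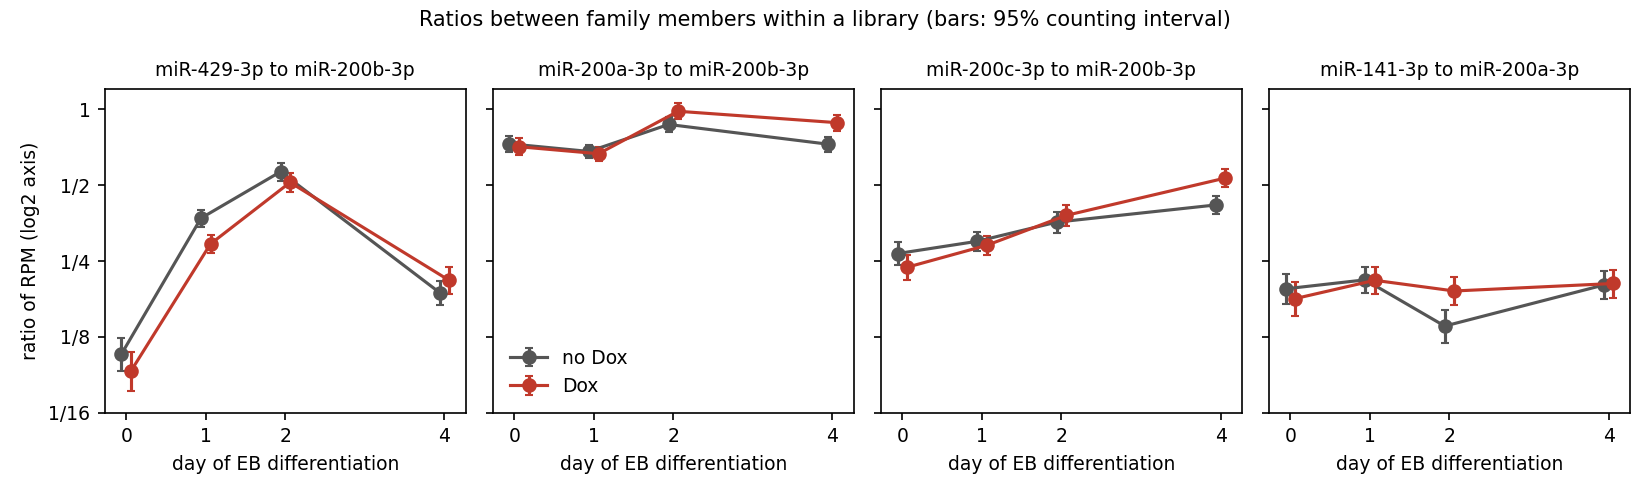
Ratios between members inside each library (log axis) by day, without and with Dox, with 95% counting intervals. The ratio of miR-429-3p to miR-200b-3p rises from 0.107 to 0.566 by day 2 without Dox and from 0.0916 to 0.513 with Dox, then falls by day 4, while the other ratios move less.

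The loci were compared through their summed levels and through the pairs that share a seed. The chromosome 4 locus summed to 8052, 11041, 9644 and 10898 RPM without Dox and to 7787, 9101, 8050 and 6423 with Dox. The chromosome 6 locus summed to 1765, 2361, 1871 and 3148 RPM without Dox and to 1550, 1960, 1819 and 2137 with Dox. The chromosome 4 locus thus gave between 3.01 and 5.15 times the level of the other in every library, with both extremes among days 2 and 4.

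The share of the family from chromosome 6 was highest at day 4 in both series. It was 18.0%, 17.6%, 16.2% and 22.4% on the 4 days without Dox and 16.6%, 17.7%, 18.4% and 25.0% with Dox. The day 4 intervals, 21.3% to 23.6% without Dox and 23.7% to 26.2% with Dox, lay above those of the 3 earlier days in their series. The upper bounds of those earlier days were 19.2% and 19.6% at most.

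Through the pair that shares a seed, the ratio of miR-200c-3p to miR-200b-3p was 0.268, 0.300, 0.357 and 0.418 on days 0, 1, 2 and 4 without Dox. With Dox it was 0.236, 0.289, 0.380 and 0.534, higher on each day than on the one before in both series. Relative to miR-200b-3p, miR-200c-3p was higher by 0.91 at day 4 than at day 0 (SE 0.34, limma adjusted p = 0.0415, where 20.3% of all miRNAs were higher). The adjusted p was between 0.0862 and 0.302 when either day 0 library, any library of days 1 or 2, or the day 4 library with Dox was left out, and 0.0632 with miR-200a-3p as the reference in place of miR-200b-3p. The difference itself stayed positive, from 0.71 to 1.11, over the 8 libraries left out.

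The other pair across the loci showed no such order of days. The ratio of miR-141-3p to miR-200a-3p was 0.194, 0.211, 0.138 and 0.201 without Dox and 0.178, 0.210, 0.190 and 0.204 with Dox, lowest at day 2 without Dox. Inside the chromosome 6 locus, miR-141-3p was 0.529, 0.479, 0.337 and 0.350 of miR-200c-3p without Dox and 0.534, 0.485, 0.493 and 0.338 with Dox. The partners of the smaller locus therefore also parted by day 4, to the advantage of miR-200c-3p in both series.

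Across the 8 libraries the correlation of log2 levels was 0.79 between miR-200b-3p and miR-200a-3p and 0.61 between miR-200c-3p and miR-141-3p. It was 0.12 between miR-200b-3p and miR-429-3p of the same cluster, and 0.72 between miR-200b-3p and miR-141-3p of different clusters. These are Pearson values over libraries that share days and treatment, given as a description. The seed shared by miR-200b, miR-429 and miR-200c made up between 61.2% and 66.9% of the family's 3p reads in all 8 libraries.

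The effect of Dox was tested with day in the model, so that its error starts from the variation of the Dox ratio between the 4 days. This spread was then moved by limma toward the trend over all miRNAs. The SD used was 0.292 for miR-429-3p, against 0.15 of its own, and 0.283 for miR-200c-3p, against 0.118. For miR-200b-3p it was 0.259, against 0.27. By limma 0 of the 9 members passed, against 1.91% of all miRNAs called in either direction, and 1 member had an unadjusted p below 0.05. Without a filter on low values 3 members had an unadjusted p below 0.05 and 0 passed, as did 0 of all 1099 miRNAs. The fit by limma-voom on the implied reads also called 0 members, against 20 of all 839 miRNAs. miR-429-3p had a log2 difference of -0.49 with Dox (SE 0.21, adjusted p = 0.292). The others with a 3p arm were miR-200b-3p at -0.36 (SE 0.18, adjusted p = 0.476), miR-200c-3p at -0.30 (SE 0.20), miR-200a-3p at -0.26 (SE 0.19) and miR-141-3p at -0.17 (SE 0.22). Without the day 4 pair these differences were nearer to 0: -0.17 for miR-200b-3p, -0.14 for miR-200a-3p, -0.22 for miR-200c-3p, -0.41 for miR-429-3p and -0.029 for miR-141-3p. Over all 4 days the median over the 9 members was -0.36, and 0.03 over all miRNAs tested.

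Within single days the 3p arms were mostly lower with Dox, beyond counting error. Of their 20 ratios of Dox to no Dox, 19 were below 1. The interval lay below 1 for 14, above it for 1 and included it for 5, all at day 0. Counting intervals do not include variation between cultures, which these single libraries cannot show.

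miR-200b-3p had ratios of 0.991, 0.860, 0.820 and 0.535 on days 0, 1, 2 and 4 (95% counting interval at day 4, 0.501 to 0.572). Its lowest ratio was thus at day 4 and its highest at day 0. Fitted over the days, its Dox difference had a slope of -0.22 per day (SE 0.10, unadjusted p = 0.0344) and did not pass after adjustment (limma adjusted p = 0.405). For that slope 0 of the 9 members passed by limma and by limma-voom, against 0.954% of all miRNAs, and miR-200b-3p was the 1 member with an unadjusted p below 0.05.

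miR-200a-3p had ratios of 0.964, 0.842, 0.925 and 0.651, and miR-200c-3p of 0.874, 0.829, 0.872 and 0.685. miR-429-3p was at 0.849, 0.680, 0.744 and 0.599, below 1 from day 1 on by its interval. miR-141-3p was the exception, at 0.882, 0.838, 1.27 and 0.661, with an interval of 1.06 to 1.54 at day 2. For all 5 arms the ratio of Dox to no Dox was lowest at day 4, between 0.535 and 0.685.

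**Figure D4:**
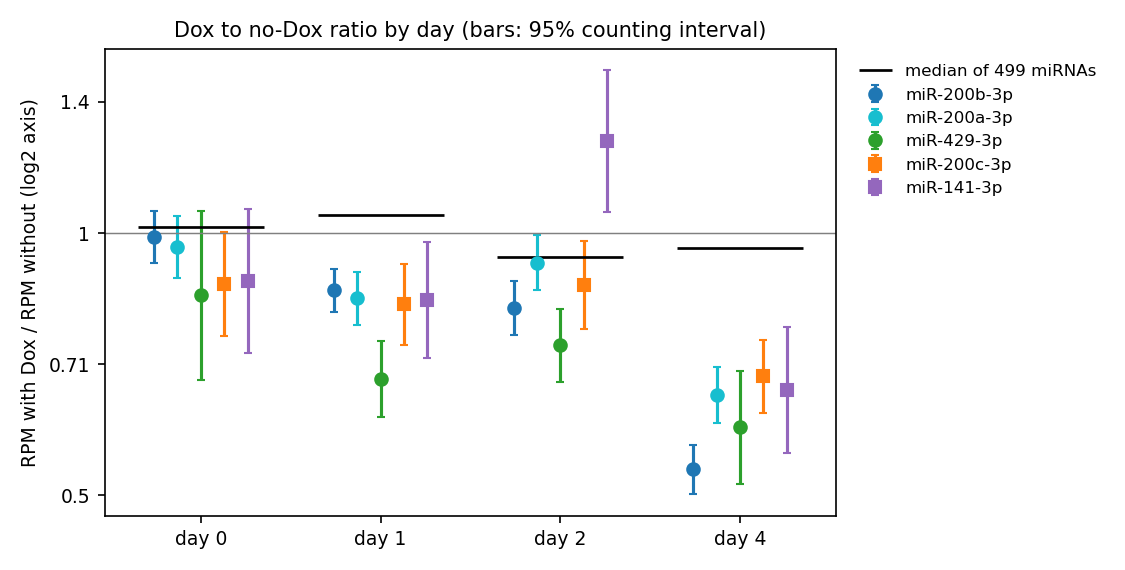
Ratio of the level with Dox to that without (log axis) for the 5 family 3p arms on each day, with 95% counting intervals; the black bars are the median of the 499 miRNAs whose mean reached 10 RPM. The arms lie between 0.849 and 0.991 at day 0 and between 0.535 and 0.685 at day 4, below the black bar, and miR-141-3p at day 2 is the only point above 1.

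The median miRNA lay nearer to 1. Over the 499 miRNAs whose mean reached 10 RPM the median log2 ratio of Dox to no Dox was 0.02, 0.07, -0.09 and -0.06 on the 4 days. Over the 7 members among them it was -0.19, -0.25, -0.29 and -0.62. Lower values with Dox on all 4 days were seen for 5 of those 7 members (miR-200b-3p, miR-200a-3p, miR-200a-5p, miR-429-3p and miR-200c-3p), where 10.2% of the 499 had them. The same 5 were lower on all days with median-of-ratios scaling, where 11.6% of all were. Members cut from 1 transcript are not independent, so this count describes the family and carries no p-value.

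Both loci were lower with Dox in sum. The chromosome 4 locus was at 0.967, 0.824, 0.835 and 0.589 of its level without Dox on the 4 days, and the chromosome 6 locus at 0.878, 0.830, 0.972 and 0.679. For the seed-sharing pair, the log2 ratio of miR-200c-3p to miR-200b-3p with Dox minus that without was -0.18, -0.05, 0.09 and 0.35 on days 0, 1, 2 and 4, below 0 on the first 2 and above 0 on the last 2. At day 4 the counting intervals of the ratio stood apart, 0.491 to 0.581 with Dox and 0.385 to 0.453 without. The mean difference was 0.05 (SD 0.23 over 4 days), within the spread between days (exact two-sided sign-permutation p = 0.75, adjusted over 2 pairs 0.75). For miR-141-3p and miR-200a-3p the mean was 0.09 (SD 0.26, exact permutation p = 0.75). Fitted over the days relative to miR-200b-3p, the Dox difference of miR-200c-3p had a slope of 0.13 per day (SE 0.12, limma adjusted p = 0.598). That SE rests on an SD of 0.254, set by the trend over all miRNAs, against 0.003 of its own around the fitted line. With 4 pairs the exact test has 16 sign patterns and cannot reach 0.05, and its p does not show that the loci respond alike.

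The miR-302 cluster stood at 35789 RPM in sum at day 4 without Dox and 2369 with Dox, the day on which the family's Dox ratios were lowest. Its part in the family's values was not tested. Fibroblast markers summed to between 1415 and 3254 RPM without Dox and 2061 and 2361 with Dox, and endoderm markers to between 280 and 801 and 589 and 985. All 4 markers found of each list were above 0 in at least 1 library, and their part was not tested either.

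Other miRNAs known from epithelia were taken as a comparison. Of 10 tested, 0 passed for Dox (2 with an unadjusted p below 0.05, miR-192-5p and miR-205-5p, in opposite directions) and 0 at day 1 (2 with an unadjusted p below 0.05). At day 2, 2 of the 10 fell, against 2.03% of all miRNAs: miR-192-5p by 1.13 and miR-194-5p by 1.32 in log2 level (limma adjusted p = 0.00713 and 0.00862), both known from gut and liver epithelium. At day 4 miR-194-5p was lower by 1.45 (adjusted p = 0.00166) and miR-375-3p, known from endocrine and gut epithelium, higher by 1.88 (limma adjusted p = 0.0249), where 3.81% of all miRNAs were lower and 21.9% higher. The list's median change at day 4 was 0.02, against 0.56 over all miRNAs tested. The 3 most abundant, miR-182-5p, miR-183-5p and miR-96-5p, are processed from 1 cluster, and the first 2 stood above the whole miR-200 family in every library (30437 to 45170 and 25842 to 35928 RPM).

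Of 13 miRNAs known from mesenchymal cells, 2 were higher at day 1 than at day 0 (7.03% of all miRNAs were), namely miR-21a-5p and miR-145a-5p. At day 2, 4 were higher and 1 lower, against 15.3% and 2.03% of all: miR-21a-5p, miR-145a-5p, miR-29a-3p and miR-29b-3p were higher, and miR-125b-5p fell by 1.98 in log2 level (limma adjusted p = 0.000416). At day 4, 4 were higher and 1 lower, against 21.9% and 3.81% of all. The list's median change at day 4 was 0.00, against 0.56 over all miRNAs tested.

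miR-21a-5p, the most abundant of the list, was at 8428 RPM at day 0 and 36898 at day 4 without Dox, and at 14675 and 53151 with Dox (log2 change 1.99, limma adjusted p = 4.63e-16). miR-29a-3p was higher by 1.83 and miR-29b-3p by 2.35 at day 4. The remaining day 4 calls average series that differ: miR-10b-5p (1.18) was at 199 and 204 RPM on days 0 and 4 without Dox and at 137 and 685 with Dox. miR-145a-5p (-1.18) was at 85 and 17 RPM without Dox and at 30 and 28 with Dox. The next most abundant, miR-22-3p and miR-143-3p, passed on no day; miR-22-3p lay between 1266 and 4316 RPM and miR-143-3p between 1004 and 2723.

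None of the 13 passed for the mean Dox effect by limma, and 2 had an unadjusted p below 0.05. For the slope of the Dox difference over the days 1 of the 13 passed, against 0.954% of all miRNAs: miR-10b-5p, with 0.59 per day (SE 0.16, limma adjusted p = 0.0367). The SD used was 0.341, below its own 0.505. Its level with Dox was 685 RPM at day 4, against 137 to 242 RPM on the earlier days. No miRNA at all passed for this slope without a filter on low values, without the robust option, or without the day 2 or the day 4 pair.

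The miRNAs whose levels ran most like each locus over the 8 libraries were named from the 265 whose mean reached 100 RPM, by Pearson correlation of log2 values with the locus sum. For chromosome 4 they were miR-5099 (0.86), miR-450b-5p (0.86), miR-421-3p (0.81), miR-106b-3p (0.79) and miR-15b-3p (0.78). For chromosome 6 they were miR-302a-5p (0.91), miR-421-3p (0.91), miR-302d-3p (0.86), miR-296-3p (0.85) and miR-302b-3p (0.84). The miR-302 entries were by far highest in the day 4 library without Dox, where the locus sum was highest too (3148 RPM). In that library miR-302a-5p stood at 4019 RPM, against 25 to 187 in the others, and miR-302b-3p at 12939, against 126 to 914. miR-421-3p was the 1 miRNA on both lists. The nearest to miR-429-3p alone, looked up after its values were seen, was let-7a-5p (0.97). Its levels were 548, 1358, 1338 and 808 RPM on the 4 days without Dox; with Dox they were 547, 1251, 1198 and 584 RPM. With 8 libraries that share days and scaling, these values are descriptions.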

How the data were processed

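The deposited values are scores: whole numbers summing to nearly the same total in each library, which is RPM rounded by the authors. The submitters' processing notes name Bowtie and mm10; the counting tool, annotation and handling of multiply mapped reads were not given in the sources used here. A total row without values was left out (1 row). Implied reads are the smallest total found per library that turns all values into whole reads within 0.5 RPM. Larger totals also matched in 5 of 8 libraries. The search had an upper limit, and multiples of the totals of the other libraries lay above it. Those totals are therefore not shown to be unique. Counting intervals at 95% (exact binomial) use these reads and cover counting error only.

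The design allowed for either raw counts or a normalized unit, and the test for the latter was used: limma 3.58.1 in R 4.3.3 on log2(value + 1), trend and robust prior variance, 839 miRNAs, adjusted p under 0.05. For most miRNAs the spread came from the trend: for miR-429-3p 0.292 was used, against 0.15 of its own. Other steps used Python 3.11.15. Alternatives were the pseudocount, filters, scalings, no robust option, no day term and libraries left out; the reference miR-200b-3p, limma-voom and the contrast of days 4 and 2 were added after seeing the data. Named were all members, the 5 miRNAs most like each locus, and from the lists those past the test and the 3 most abundant. Members and lists were chosen with earlier results of these data known. The code was tested on simulated data.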

Additional observations from a re-analysis of the deposited data

How the results depend on the processing

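Without a filter on low values 0 members passed for any of the 4 day contrasts. The main limma fit had called 1, 2, 2 and 1 (days 1, 2 and 4 against day 0, and day 4 against day 2). Of all 1099 miRNAs, 1, 1, 30 and 3 passed without the filter, and 68, 145, 216 and 78 of 839 with it. At day 2, requiring a mean of 10 left 1 member (149 of 499 miRNAs passed), while median-of-ratios scaling called 3 (102 of 839 passed). At day 4 against day 0, median-of-ratios scaling and scaling to values outside the miR-290 to miR-295 cluster each left 0. Of all 839 miRNAs, 161 and 164 passed under these scalings. Leaving out 1 library gave 1 to 2 at day 2, 0 to 2 at day 4 and 0 to 1 between days 2 and 4. Relative to miR-200b-3p, miR-429-3p ranged from 1.60 to 1.87 at day 1, 0.80 to 1.20 at day 4 and -1.64 to -1.25 between days 2 and 4, and miR-200c-3p from 0.71 to 1.11 at day 4. Without the filter the day 4 values were 1.00 (adjusted p = 0.0568) and 0.91 (0.0828), and with miR-200a-3p as reference 0.75 (0.0632) for miR-200c-3p. The cause of these losses was not tested. The ratio of miR-200c-3p to miR-200b-3p under Dox ran from -0.048 to 0.13 and that of miR-141-3p to miR-200a-3p from -0.039 to 0.16, reversing without the day 4 and the day 2 pair. Member calls for Dox stayed at 0 under every alternative run, the fit without a day term included. Of all miRNAs tested, 0 passed for Dox without a filter, without the robust option or without a day term. The libraries carry no replicate numbers; treatments were paired by day. edgeR was not run, since the values are rounded RPM, and limma-voom stood in for it. The 5p arms of miR-141 and miR-200c rest on too few reads for firm comparisons between single libraries.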
